A study of Mus musculus with 6 samples.

Results

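The lysyl oxidase family of the mouse has 5 genes, Lox, Loxl1, Loxl2, Loxl3 and Loxl4. The family was chosen by the levels and fold changes of its members in the libraries described here, and its members were then taken by gene symbol from a table of read counts for 24091 genes. All 5 were found, and all 5 passed the filter on low counts, which left 15050 genes. Counts came from RNA sequencing of mouse prostate in 6 libraries, 2 in each of 3 groups. The first group (12Q) was prostate tumors of males with a humanised allele that codes for a tract of 12 glutamines, and the second (48Q) was tumors of males with the allele of 48 glutamines. Males of both tumor groups also carried Ctnnb1(Ex3)L/wt, a β-catenin gene with a conditional exon 3 on 1 of its alleles, and PBCre-4, a Cre transgene driven by the probasin promoter, which is active in prostate epithelium. Wild type mice gave normal prostate (WT). WT therefore differed from both tumor groups in all 3 alleles and in the tumor itself, and no tumor-free group with these alleles was analysed here. Ages are not in the labels, nor whether the replicates of a group were separate animals. The p-values therefore reflect variation among these libraries, part of which may be technical.

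Libraries held 26416181 to 28559546 counts, and a count of 3 corresponded to 0.0856 to 0.156 CPM (the count of a gene relative to the scaled library total). Ctnnb1 averaged 996 ± 54.2 CPM in 12Q tumors, 1019 ± 88.0 CPM in 48Q tumors and 619 ± 70.7 CPM in WT prostate (SD, n = 2 each), and counts per gene cannot show the loss of exon 3. In WT prostate the gene 9530053A07Rik took 17.4% and 22.8% of all counts. Markers of luminal prostate epithelium (Krt8, Krt18 and others) were present in every library. A list of 5 prostate secretory genes summed to 603 to 14545 CPM in 12Q tumors, 9759 to 13619 CPM in 48Q tumors and 66245 to 96829 CPM in WT prostate, with Spink1 and Sbp at 0 in 12Q tumors and Spink1 at 0 in WT prostate. Tgm4 alone, at 14538 and 598 CPM, made up nearly all of the sum in 12Q tumors. Pbsn, the gene of probasin, stood at 3.33 and 5.14 CPM in 12Q tumors, 3954 and 2248 CPM in 48Q tumors and 28214 and 16143 CPM in WT prostate. Msmb overlapped between 12Q tumors and both other groups.

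Lysyl oxidases are secreted, copper-dependent enzymes that oxidise the amino group of lysine and hydroxylysine in collagen and elastin, and the aldehydes that form then join into the covalent cross-links that stiffen the extracellular matrix. Lox is made as a proenzyme that is cut outside the cell by Bmp1 and related proteinases, and fibronectin, periostin and fibromodulin help to hold the enzyme at its substrate. Loxl1 is the member most closely tied to elastic fibres. Loxl2, Loxl3 and Loxl4 carry scavenger receptor domains in front of the catalytic part. Loxl2 is known for the cross-linking of collagen IV in basement membranes, and both Lox and Loxl2 are known targets of hypoxia signalling.

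The catalytic part of every member holds a copper-binding stretch with 4 histidines. It is shown here because it divides the family into the same subgroups as the domains in front of it. Coding sequences of 60 bases were read 5′ to 3′ from GENCODE M21 transcripts (mm10) for the members below, and capitals mark the 4 histidine codons.
Loxl1: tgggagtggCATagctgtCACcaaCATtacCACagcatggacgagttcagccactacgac
Loxl2: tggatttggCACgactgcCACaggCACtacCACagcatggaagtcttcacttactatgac
Loxl3: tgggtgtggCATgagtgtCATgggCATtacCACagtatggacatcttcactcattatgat
Loxl4: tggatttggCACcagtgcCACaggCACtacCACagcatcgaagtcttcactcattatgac
Each stretch crosses a splice junction, so that its coordinates span an intron. The Loxl1 stretch lies in coding exons 3 and 4 (chr9:58293693-58294381, minus strand), and that of Loxl2 in coding exons 9 and 10 (chr14:69682316-69689064, plus strand). The Loxl3 stretch lies in coding exons 9 and 10 (chr6:83049995-83050152, plus strand), and that of Loxl4 in coding exons 10 and 11 (chr19:42598780-42599899, minus strand). Over these 60 bases Lox and Loxl1 shared 57 bases (95.0%), and Loxl2 and Loxl4 shared 55 (91.7%). Loxl3 shared 47 bases with Loxl4 and 46 with Loxl2. Across the subgroups the shared bases were fewer, from 40 between Loxl1 and Loxl4 to 44 between Lox and Loxl2. Loxl3 shared 43 with Lox and 43 with Loxl1, so that its place in the subgroup rests on few bases. The coding sequence was 1233 bases long in Lox and 1821 in Loxl1, against 2328 in Loxl2, 2262 in Loxl3 and 2274 in Loxl4.

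Both members without scavenger receptor domains, Lox and Loxl1, were close to absent in 12Q tumors and were higher in 48Q tumors than in WT prostate. The other 3 members did not share this pattern. Loxl2 was higher in both tumor groups than in WT prostate, Loxl4 was higher in 12Q tumors with an uneven level in 48Q tumors, and Loxl3 was low and overlapped between 12Q tumors and WT prostate. Because the family was proposed with results of these 6 libraries known, levels and fold changes of its members are given as a description, with no p-values. The libraries are bulk tissue, in which fewer cells of a type and less RNA per cell cannot be told apart. In the same libraries 8 fibroblast markers summed to 143 to 303 CPM in 12Q tumors, 659 to 985 CPM in 48Q tumors and 806 to 1061 CPM in WT prostate, and the part of fibroblasts in the family's levels was not tested.

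Coordinates of the genes are those of the authors' table, in mm10. Lox (chromosome 18, 52516060 to 52529867, minus strand), the founding member, had 6 and 12 counts in the 12Q libraries, 825 and 920 in the 48Q libraries and 162 and 137 in the WT libraries. On the CPM scale this was 0.222 and 0.371 in 12Q tumors, 24.8 and 26.2 in 48Q tumors and 8.45 and 6.06 in WT prostate. Every 12Q library lay below every WT library, every 48Q library lay above every WT library, and no groups overlapped. Poisson 95% intervals for the 12Q levels were 0.0815 to 0.483 CPM and 0.192 to 0.649 CPM, and cover counting error only. The mean was 24.4-fold lower in 12Q tumors than in WT prostate (log2 fold change -4.58 ± 0.45). It was 3.52-fold higher in 48Q tumors than in WT prostate (1.82 ± 0.37) and 86.1-fold lower in 12Q than in 48Q tumors (-6.39 ± 0.48). Log2 fold changes are edgeR's estimate ± an SE derived from the F statistic of its test. Lox shares 0.628% of its exon bases with another annotated gene.

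Loxl1 (chromosome 9, 58287723 to 58313212, minus strand), the elastic-fibre member, followed the same order of groups. It had 4 and 12 counts in the 12Q libraries, 373 and 457 in the 48Q libraries and 104 and 94 in the WT libraries. The levels were 0.148 and 0.371 CPM in 12Q tumors, 11.2 and 13.03 CPM in 48Q tumors and 5.42 and 4.16 CPM in WT prostate. Again no groups overlapped, with 12Q tumors lowest and 48Q tumors highest. The log2 fold change was -4.16 ± 0.58 in 12Q tumors against WT prostate, 1.34 ± 0.49 in 48Q tumors against WT prostate and -5.50 ± 0.61 in 12Q against 48Q tumors. In means, Loxl1 was 18.4-fold lower in 12Q tumors than in WT prostate and 2.53-fold higher in 48Q tumors than in WT prostate. Without 12Q replicate 2, which left 4 counts, the log2 fold change was -4.97 against WT prostate and -6.30 against 48Q tumors, and without 12Q replicate 1 it was -3.62 against WT prostate and -4.98 against 48Q tumors.

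**Figure D1:**
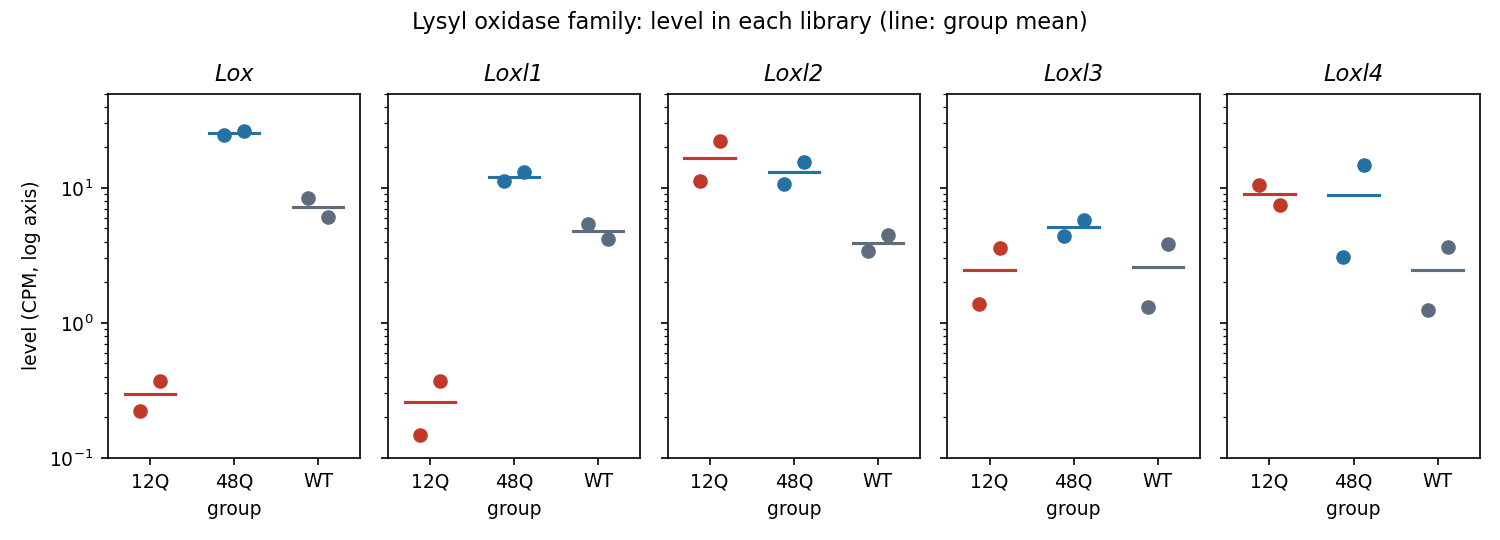
Level of each lysyl oxidase gene in CPM on a log axis, by group, where each point is 1 library and the line is the group mean. Lox and Loxl1 lie under 0.5 CPM in both 12Q libraries, while Loxl2 and Loxl4 lie above WT prostate in both 12Q libraries and Loxl3 overlaps it.

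Loxl2 (chromosome 14, 69609167 to 69695834, plus strand), the basement membrane member, went the other way in 12Q tumors. Its level was 11.2 and 22.3 CPM in 12Q tumors, 10.7 and 15.4 CPM in 48Q tumors and 3.39 and 4.47 CPM in WT prostate. All 4 tumor libraries lay above both WT libraries, and the tumor groups overlapped. The mean was 4.26-fold higher in 12Q tumors than in WT prostate (log2 fold change 2.09 ± 0.46) and 3.33-fold higher in 48Q tumors than in WT prostate (1.73 ± 0.46), and between 12Q and 48Q tumors the log2 difference was 0.36 ± 0.44. Of its exon bases 5.70% overlap Gm27177 on the opposite strand or Mir6950, and since the strand setting of the counting is not given in the sources used here, reads of these genes cannot be told apart.

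Loxl4 (chromosome 19, 42592279 to 42612806, minus strand) had 10.4 and 7.52 CPM in 12Q tumors, 3.07 and 14.7 CPM in 48Q tumors and 1.25 and 3.67 CPM in WT prostate. Both 12Q libraries lay above both WT libraries, but the 48Q libraries were 4.80-fold apart and 48Q replicate 1 fell inside the range of WT prostate. The log2 fold change was 1.86 ± 0.86 in 12Q tumors against WT prostate and 1.85 ± 0.86 in 48Q tumors against WT prostate. The value in 48Q tumors against WT prostate was 0.31 without 48Q replicate 2, 2.57 without 48Q replicate 1 and 2.82 without WT replicate 2.

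Loxl3 (chromosome 6, 83034224 to 83052564, plus strand) was the lowest of the 3 members with scavenger receptor domains in CPM in every 12Q library. It stood at 1.37 and 3.59 CPM in 12Q tumors, 4.37 and 5.82 CPM in 48Q tumors and 1.30 and 3.85 CPM in WT prostate. The 48Q libraries lay above all others, while 12Q tumors and WT prostate overlapped. The log2 fold change was -0.06 ± 0.72 in 12Q tumors against WT prostate, 0.98 ± 0.72 in 48Q tumors against WT prostate and -1.03 ± 0.72 in 12Q against 48Q tumors. Here 11.6% of the exon bases overlap Htra2 on the opposite strand, so that its values are uncertain.

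Among the 5 members, 1 was called higher and 2 lower in 12Q tumors against WT prostate by edgeR's test (adjusted p under 0.05), where 22.4% of all genes tested were called, 11.2% in each direction. In 48Q tumors against WT prostate 1 was called higher, with 5.18% of all genes called in either direction and 3.95% higher, and in 12Q against 48Q tumors 2 were called lower, with 4.17% of all genes called in either direction and 3.16% lower. Groups that did not overlap were found for 2 members higher and 2 lower in 12Q tumors against WT prostate (30.1% and 30.4% of all genes), for 4 higher and 0 lower in 48Q tumors against WT prostate (34.7% and 29.8%) and for 0 higher and 3 lower in 12Q against 48Q tumors (31.3% and 35.5%). The median log2 fold change of the family was -0.06, 1.73 and -1.03 in these comparisons, beside -0.01, 0.02 and 0.00 over all genes. The call of Loxl2 in 12Q tumors against WT prostate was lost without 12Q replicate 2 or each of the 48Q or WT replicates in turn. Lox lost its call in 48Q tumors against WT prostate without each of the 48Q or WT replicates in turn, and Loxl1 lost its call in 12Q against 48Q tumors without either 48Q replicate. The comparisons share libraries, and nothing is read from these counts, because the family was chosen with these contrasts in view.

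**Figure D2:**
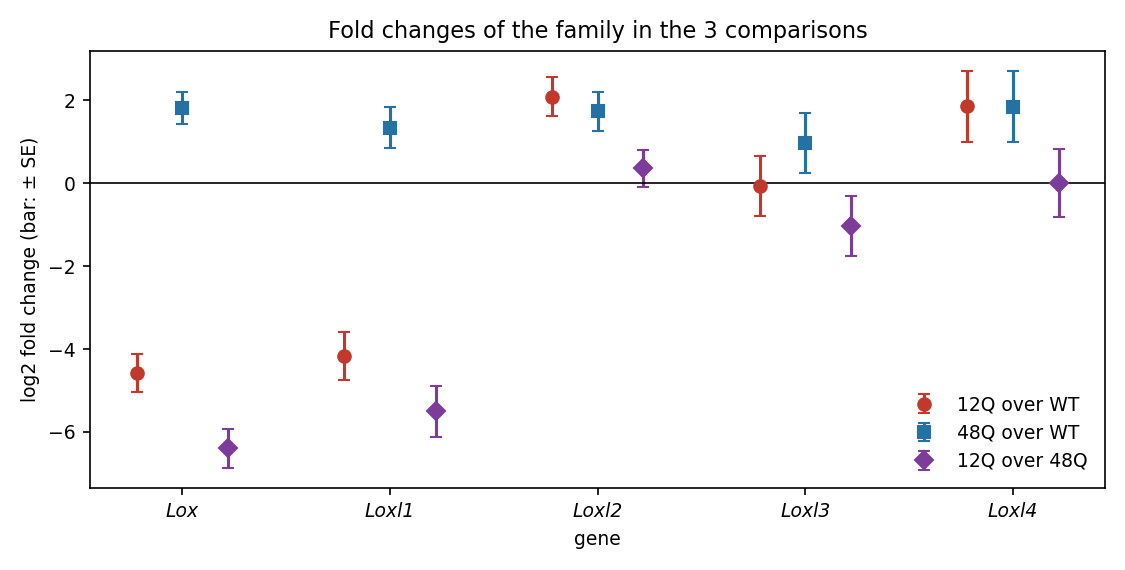
Log2 fold change of each lysyl oxidase gene in the 3 comparisons, with bars of ± SE from the fit of all 6 libraries. Lox and Loxl1 lie below 0 in 12Q over WT and above 0 in 48Q over WT, whereas Loxl2 and Loxl4 lie above 0 in both.

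To compare levels between genes, CPM were divided by the length column of the authors' table, in kilobases. The sum over the family was 4.48 and 6.67 CPM per kilobase in 12Q tumors, 12.1 and 16.3 in 48Q tumors and 4.54 and 4.95 in WT prostate. The summed level thus overlapped between 12Q tumors and WT prostate, and was higher in both 48Q libraries than in all others. The makeup of the sum differed between 12Q tumors and the other groups. Lox gave 1.01% and 1.13% of the family's length-corrected level in 12Q tumors, 41.7% and 32.6% in 48Q tumors and 37.8% and 24.8% in WT prostate. Loxl1 gave 0.992% and 1.67% in 12Q tumors, 27.9% and 24.0% in 48Q tumors and 35.9% and 25.2% in WT prostate. The share of Loxl2 was 47.5% and 63.1% in 12Q tumors, 16.8% and 17.9% in 48Q tumors and 14.1% and 17.0% in WT prostate. Loxl2, Loxl3 and Loxl4 together made up 98.0% and 97.2% of the family's length-corrected level in 12Q tumors, 30.4% and 43.4% in 48Q tumors and 26.3% and 50.0% in WT prostate.

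The order of length-corrected means in 12Q tumors was Loxl2 (3.16 ± 1.47 CPM per kilobase), Loxl4 (1.66 ± 0.38), Loxl3 (0.615 ± 0.389), Loxl1 (0.0780 ± 0.0474) and Lox (0.0602 ± 0.0214). Neighbours overlapped between Loxl1 and Lox, and Loxl2 and Loxl4 were close in 12Q replicate 1, where their order turned with the exon lengths of GENCODE M21 in place of the authors' lengths (42.1% for Loxl2 and 50.1% for Loxl4). In 48Q tumors the order was Lox (5.18 ± 0.20), Loxl1 (3.64 ± 0.38), Loxl2 (2.47 ± 0.63), Loxl4 (1.64 ± 1.52) and Loxl3 (1.26 ± 0.25), where Loxl4 overlapped Loxl2 and Loxl3. In WT prostate Lox (1.47 ± 0.34) and Loxl1 (1.44 ± 0.27) overlapped at the top, above Loxl2 (0.742 ± 0.144), Loxl3 (0.638 ± 0.446) and Loxl4 (0.454 ± 0.315), whose ranges overlapped (SD, n = 2 for each). Among all genes tested, the length-corrected level of Lox stood at the percentiles 7.40 and 7.77 in 12Q tumors, 45.8 and 46.9 in 48Q tumors and 35.0 and 26.6 in WT prostate.

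**Figure D3:**
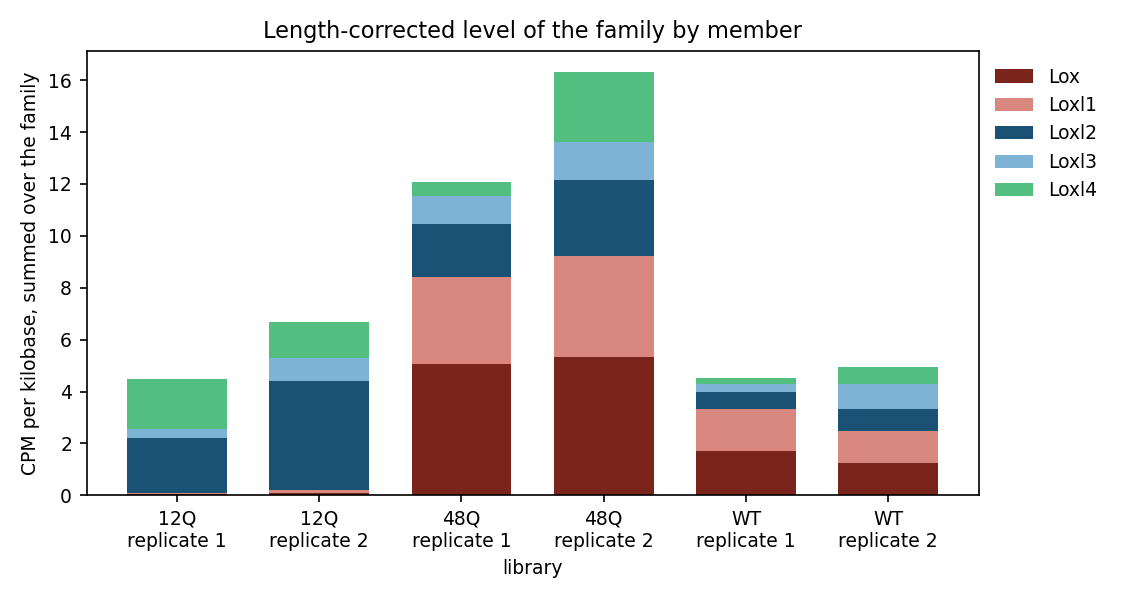
Length-corrected level of the lysyl oxidase family in each library, in CPM per kilobase, stacked by member. The 12Q bars consist almost wholly of Loxl2, Loxl3 and Loxl4, at 98.0% and 97.2%, while Lox and Loxl1 make up 69.6% and 56.6% of the 48Q bars and 73.7% and 50.0% of the WT bars.

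Genes that act around lysyl oxidases were followed in 8 lists with 95 members, of which 94 were tested. They were chosen with earlier results of these data known. In 12Q tumors against WT prostate 22 rose and 21 fell (45.7% called, beside 22.4% of all genes), with a median log2 fold change of 0.09. In 48Q tumors against WT prostate 3 rose and 0 fell by edgeR (3.19% called, beside 5.18% of all genes), with 19 higher and 5 lower at an unadjusted p under 0.05, and 13 and 2 called by DESeq2 (median 0.35). In 12Q against 48Q tumors 5 rose and 9 fell (14.9% called, beside 4.17% of all genes, median -0.35).

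Among 12 genes for the processing, docking and copper supply of the enzymes, 1 rose and 3 fell in 12Q tumors against WT prostate, and 3 fell in 12Q against 48Q tumors. The gene that rose, Thbs1, which encodes the matrix protein thrombospondin 1, stood at 171 and 708 CPM in 12Q tumors, 388 and 246 CPM in 48Q tumors and 78.9 and 39.0 CPM in WT prostate (log2 fold change in 12Q tumors against WT prostate 2.90 ± 0.74, edgeR adjusted p = 0.0371, with 0.000179 to 0.148 over 12 alternatives). Its call was lost without 12Q replicate 2, without either WT replicate, with only the groups compared and with the replicate number as a block, and its log2 fold change was 1.54 without 12Q replicate 2, 3.64 without 12Q replicate 1 and 3.50 without WT replicate 1. The count of 3 in 12Q against 48Q tumors dropped to 1 without each of the 12Q or 48Q replicates in turn. Fmod encodes fibromodulin, a collagen-binding proteoglycan that brings Lox to fibrils. Its level was 0.185 and 0.217 CPM in 12Q tumors, 75.0 and 56.6 CPM in 48Q tumors and 28.0 and 45.8 CPM in WT prostate. It fell in 12Q tumors against WT prostate (log2 fold change -7.48 ± 0.45, edgeR adjusted p = 0.00256) and against 48Q tumors (-8.32 ± 0.46, edgeR adjusted p = 0.00813). Bmp1, the proteinase that cuts the Lox proenzyme, was singled out after its values were seen. It stood at 32.1 and 29.3 CPM in 12Q tumors, 24.7 and 30.8 CPM in 48Q tumors and 4.64 and 19.5 CPM in WT prostate. Bmp1 did not pass the test in 12Q tumors (log2 fold change 1.34, edgeR adjusted p = 0.164) or in 48Q tumors against WT prostate (1.20, edgeR adjusted p = 0.280). Over 12 alternatives the adjusted p of Bmp1 ranged from 0.0194 to 0.282 in the first and from 0.0390 to 0.708 in the second comparison, and it passed in both only without WT replicate 2, which left the lower WT library alone.

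The elastic fibre list holds elastin, fibulins, fibrillins and their partners, substrates and scaffolds of Loxl1 and Lox. Of its 13 members 8 fell and 0 rose in 12Q tumors against WT prostate by edgeR, at an unadjusted p under 0.05 11 fell and 0 rose, and DESeq2 called 10 lower and 0 higher. In 12Q against 48Q tumors 6 fell and 0 rose by edgeR, 12 and 0 at an unadjusted p under 0.05 and 12 and 0 by DESeq2. The median log2 fold change was -2.87 in 12Q tumors against WT prostate and -4.04 in 12Q against 48Q tumors, and 0.45 in 48Q tumors against WT prostate, where no member was called by edgeR, 4 were higher at an unadjusted p under 0.05 and DESeq2 called 3. The count of 8 dropped to 5 without 12Q replicate 1, 48Q replicate 1, 48Q replicate 2 or WT replicate 2, and the count of 6 dropped to 2 without either 12Q replicate.

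Fbln1, the gene of fibulin 1, an elastic fibre and basement membrane protein, stood at 0.925 and 0.867 CPM in 12Q tumors, 42.5 and 40.2 CPM in 48Q tumors and 17.6 and 25.0 CPM in WT prostate. It fell in 12Q tumors against WT prostate (log2 fold change -4.57 ± 0.34, edgeR adjusted p = 0.00270) and against 48Q tumors (-5.52 ± 0.35, edgeR adjusted p = 0.00813). Eln, the gene of elastin itself, had 0.185 and 0.124 CPM in 12Q tumors, 8.25 and 7.81 CPM in 48Q tumors and 2.14 and 4.33 CPM in WT prostate. The order of the groups was that of Lox and Loxl1, with no overlap. Eln fell in 12Q tumors against WT prostate (-4.36 ± 0.63, edgeR adjusted p = 0.00852, and -3.77 without WT replicate 2). It also fell against 48Q tumors (-5.67 ± 0.66, edgeR adjusted p = 0.0205, with 3.84e-12 to 0.0873 over 12 alternatives and above 0.05 without each of the 12Q or 48Q replicates in turn).

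The other main substrates are the fibrillar collagens. Of 10 tested members 0 were called by edgeR in any comparison, and the median log2 fold change was -0.11 in 12Q tumors against WT prostate, 1.59 in 48Q tumors against WT prostate and -1.49 in 12Q against 48Q tumors. At an unadjusted p under 0.05, 0 were higher and 2 lower in 12Q tumors against WT prostate, 3 higher and 0 lower in 48Q tumors against WT prostate, and 0 higher and 4 lower in 12Q against 48Q tumors. DESeq2 called 1 higher and 2 lower, 2 higher and 0 lower, and 0 higher and 3 lower in the same comparisons. In 12Q tumors against WT prostate edgeR called 2 higher without WT replicate 2 and 1 lower without WT replicate 1. Col1a1, the gene of the α1 chain of collagen I, stood at 73.9 and 195 CPM in 12Q tumors, 147 and 191 CPM in 48Q tumors and 12.8 and 74.1 CPM in WT prostate. The 12Q libraries lay on either side of the 48Q libraries, and 12Q replicate 1 lay just below the higher WT library. Col1a1 did not pass in 12Q tumors against WT prostate (log2 fold change 1.63, edgeR adjusted p = 0.198), or in 48Q tumors against WT prostate (1.96, edgeR adjusted p = 0.210). In the first comparison its adjusted p was 0.0452 to 0.592 over 12 alternatives, and it passed without WT replicate 2 (3.39) and with the replicate number as a block (1.85). Col3a1, the gene of collagen III, stood at 16.9 and 37.7 CPM in 12Q tumors, 145 and 177 CPM in 48Q tumors and 54.1 and 121 CPM in WT prostate. It was lower in both 12Q libraries than in all others without passing against WT prostate (-1.68, edgeR adjusted p = 0.0615, 0.00908 to 0.221 over 12 alternatives) or 48Q tumors (-2.56, edgeR adjusted p = 0.0530, 7.76e-05 to 0.163 over 12 alternatives). DESeq2 and the block called Col3a1 in both comparisons, and against 48Q tumors edgeR also called it without the filter, with only the groups compared and without WT replicate 1.

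Collagen IV of basement membranes, the substrate tied to Loxl2, split by chain. Of 6 chains 2 rose and 2 fell in 12Q tumors against WT prostate, with a median log2 fold change of -3.54. Without 12Q replicate 2 no chain rose, and without 12Q replicate 1 or WT replicate 2 the number that fell dropped to 1. Col4a1, a chain of nearly all basement membranes, stood at 299 and 444 CPM in 12Q tumors, 188 and 234 CPM in 48Q tumors and 25.9 and 86.2 CPM in WT prostate. It rose in 12Q tumors against WT prostate (log2 fold change 2.73 ± 0.59, edgeR adjusted p = 0.0238, with 1.31e-05 to 0.0783 over 12 alternatives). Col4a1 lost its call without 12Q replicate 2, and its log2 fold change was 2.11 without WT replicate 1 and 3.84 without WT replicate 2. Col4a6, a chain found in some epithelial and smooth muscle basement membranes, stood at 0.148 and 2.51 CPM in 12Q tumors, 52.8 and 21.6 CPM in 48Q tumors and 382 and 477 CPM in WT prostate. It fell in 12Q tumors against WT prostate (-8.31 ± 1.23, edgeR adjusted p = 0.00884), with -7.37 without 12Q replicate 1 and -11.46 without 12Q replicate 2.

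**Figure D4:**
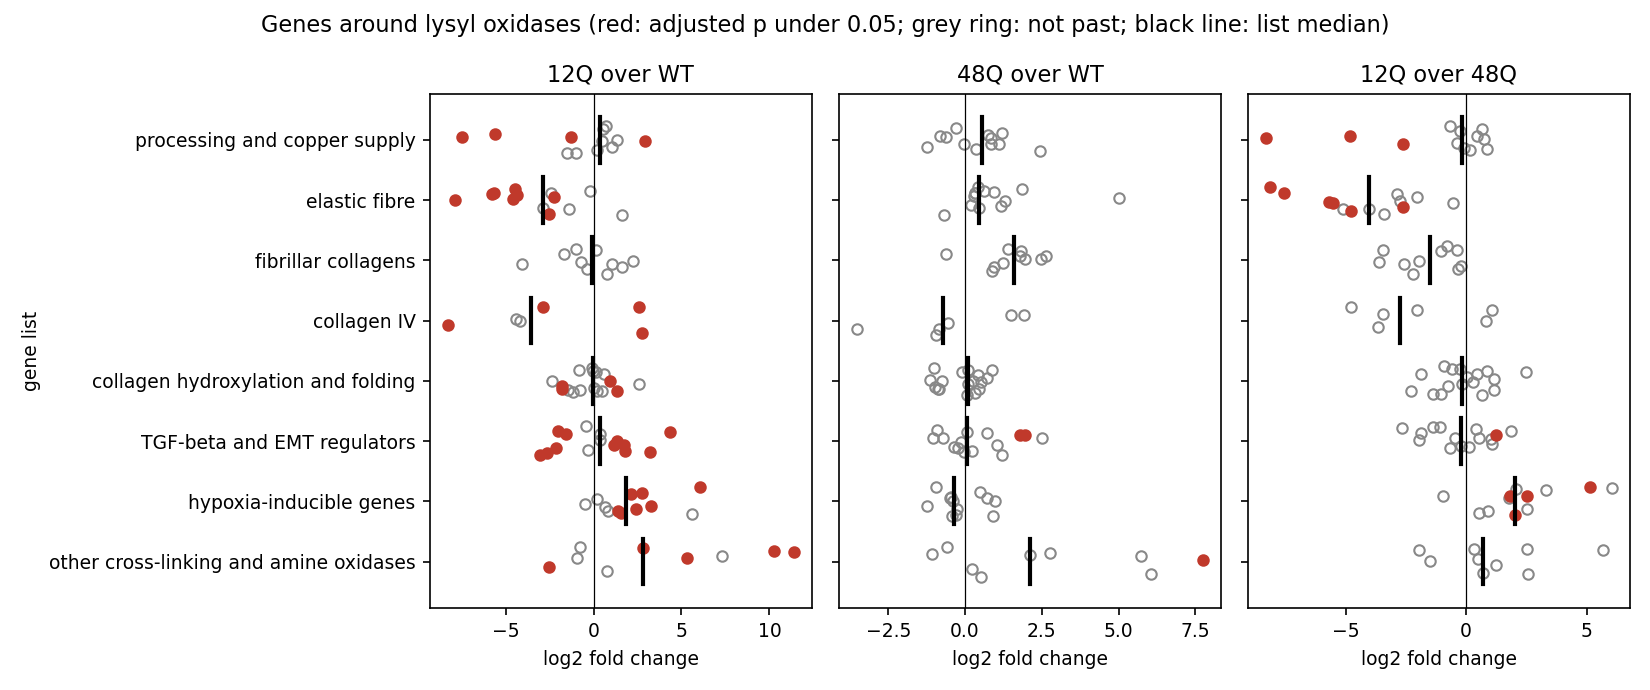
Log2 fold changes of genes around lysyl oxidases in the 3 comparisons, by list, where each point is 1 gene, filled red points have an edgeR adjusted p under 0.05 and the black line is the list's median. The elastic fibre list lies to the left in both comparisons of 12Q tumors, with medians of -2.87 and -4.04, and the hypoxia-inducible list to the right, with medians of 1.84 and 2.05.

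Signals known to act on lysyl oxidase genes were followed in 2 lists, the first of regulators and the second of genes that hypoxia induces. Of 15 genes of transforming growth factor β (TGF-β) signalling and epithelial-mesenchymal transition, 6 rose and 5 fell in 12Q tumors against WT prostate (median log2 fold change 0.34). The count of 5 dropped to 0 without 12Q replicate 2, 48Q replicate 1, 48Q replicate 2 or WT replicate 2, and the count of 6 dropped to 3 without 12Q replicate 2 or either WT replicate. Tgfb1, the ligand TGF-β1, had 80.6 and 94.6 CPM in 12Q tumors, 32.9 and 40.4 CPM in 48Q tumors and 10.1 and 8.89 CPM in WT prostate. The groups did not overlap, with 12Q tumors highest and WT prostate lowest. Tgfb1 rose in 12Q tumors against WT prostate (3.20 ± 0.25, edgeR adjusted p = 0.00274). Smad3 stood at 175.6 and 187.6 CPM in 12Q tumors, 88.8 and 87.0 CPM in 48Q tumors and 66.0 and 40.3 CPM in WT prostate. This gene, which carries the signal of TGF-β receptors to the nucleus, rose in 12Q tumors against WT prostate as well (1.77 ± 0.29, edgeR adjusted p = 0.0111).

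Of 12 hypoxia-inducible genes, 7 rose and 0 fell in 12Q tumors against WT prostate by edgeR, 8 and 0 at an unadjusted p under 0.05 and 8 and 0 by DESeq2. In 12Q against 48Q tumors 4 rose and 0 fell by edgeR, with 9 and 0 both at an unadjusted p under 0.05 and by DESeq2. The count of 7 dropped to 3 without either WT replicate, and the count of 4 to 0 without either 48Q replicate. In 48Q tumors against WT prostate 0 were called by edgeR or DESeq2, with 0 higher and 1 lower at an unadjusted p under 0.05. The list also holds Hif1a and Epas1, genes of hypoxia-inducible factors, which edgeR called in no comparison. Their log2 fold changes in 12Q tumors against WT prostate were 0.22 and -0.50. Bnip3, a mitochondrial protein and hypoxia target, stood at 88.3 and 93.6 CPM in 12Q tumors, 16.5 and 14.9 CPM in 48Q tumors and 22.7 and 18.6 CPM in WT prostate. Bnip3 rose in 12Q tumors against WT prostate (2.14 ± 0.23, edgeR adjusted p = 0.00460). Against 48Q tumors it rose too (2.53 ± 0.24, edgeR adjusted p = 0.0157, with 2.86e-16 to 0.0873 over 12 alternatives and above 0.05 without either 48Q replicate). Of its exon bases 22.3% overlap Gm45507 on the opposite strand. Loxl2 lay above WT prostate in both tumor groups. Lox, also a hypoxia target, lay far below WT prostate in 12Q tumors and above it in 48Q tumors. The part of hypoxia in the levels of these genes was not tested.

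Fibroblasts, smooth muscle and basal epithelium, cell types that make matrix or lie on it, were measured by marker lists. Of the 8 fibroblast markers 5 fell in 12Q tumors against WT prostate and 4 against 48Q tumors, and Dpt was at 0 counts in both 12Q libraries. Of all genes tested, 11.2% and 3.16% were called lower in these comparisons. At an unadjusted p under 0.05, and by DESeq2, 7 of the fibroblast markers were lower and 0 higher in each of them. Pdgfra, a receptor that marks fibroblasts, stood at 0.851 and 1.11 CPM in 12Q tumors, 82.0 and 63.6 CPM in 48Q tumors and 23.4 and 42.2 CPM in WT prostate. It fell in 12Q tumors against WT prostate (-5.05 ± 0.42, edgeR adjusted p = 0.00294) and against 48Q tumors (-6.20 ± 0.44, edgeR adjusted p = 0.00813). The part of fibroblast content in the levels of Fmod, Fbln1 and Eln was not tested either.

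The 6 smooth muscle markers summed to 36.3 to 44.4 CPM in 12Q tumors, 295 to 841 CPM in 48Q tumors and 2310 to 5839 CPM in WT prostate. All 6 fell in 12Q tumors against WT prostate, 3 fell in 48Q tumors against WT prostate and 4 fell in 12Q against 48Q tumors. The shares of all genes called lower in these comparisons were 11.2%, 1.23% and 3.16%. The count of 3 dropped to 0 without each of the 48Q or WT replicates in turn, and the count of 4 to 0 without either 12Q replicate. Unlike Lox and Loxl1, this list was lower in 48Q tumors than in WT prostate. The 5 basal epithelium markers summed to 1.59 to 5.14 CPM in 12Q tumors, 223 to 265 CPM in 48Q tumors and 232 to 265 CPM in WT prostate, and all 5 fell in 12Q tumors against WT prostate. Col17a1, a collagen of the basal cell's anchoring complexes, stood at 0.0740 and 0.0928 CPM in 12Q tumors, 28.5 and 26.6 CPM in 48Q tumors and 29.9 and 18.9 CPM in WT prostate. It fell in 12Q tumors against WT prostate (-8.11 ± 0.48, edgeR adjusted p = 0.00256) and against 48Q tumors (-8.28 ± 0.48, edgeR adjusted p = 0.00813). These fold changes rest on 5 counts over both 12Q libraries, and 12Q replicate 1 lay under the level of 3 counts (0.111 CPM). The part of smooth muscle and basal cells in the family's levels was not tested.

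None of the marker lists followed the full order of Lox in summed CPM. The fibroblast and basal lists were lowest in 12Q tumors, as Lox was, but overlapped between 48Q tumors and WT prostate. Within the fibroblast list Pdgfra, Lum and Pi16 did follow the order of Lox without overlap, and the rest of that list did not. Dcn, at 483 and 309 CPM in 48Q tumors and 446 and 342 CPM in WT prostate, weighed more in the fibroblast sum than these genes. The 6 endothelial markers summed to 232 to 255 CPM in 12Q tumors, 133 to 138 CPM in 48Q tumors and 80.1 to 106 CPM in WT prostate, and 4 rose and 1 fell in 12Q tumors against WT prostate, with 1 that rose without either 12Q replicate and 0 that fell without 12Q replicate 2 or WT replicate 1. The 6 macrophage markers summed to 198 to 212 CPM in 12Q tumors, 249 to 260 CPM in 48Q tumors and 69.1 to 69.9 CPM in WT prostate, and 5 rose in each tumor group against WT prostate, though 0 rose in 48Q tumors without either 48Q replicate or without WT replicate 1. The 5 pericyte markers summed to 83.1 to 90.2 CPM in 12Q tumors, 164 to 186 CPM in 48Q tumors and 13.6 to 76.1 CPM in WT prostate, and edgeR called 0 of them in 48Q tumors against WT prostate, with 2 at an unadjusted p under 0.05 and 2 by DESeq2. Luminal epithelium, the secretory cell type of the prostate, was present in all groups. Its 6 markers summed to 6367 to 6902 CPM in 12Q tumors, 2480 to 2805 CPM in 48Q tumors and 2710 to 8432 CPM in WT prostate. Loxl2 and Loxl4 were higher in 12Q tumors together with the endothelial and macrophage lists, and the part of these cells in their levels was not tested.

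**Figure D5:**
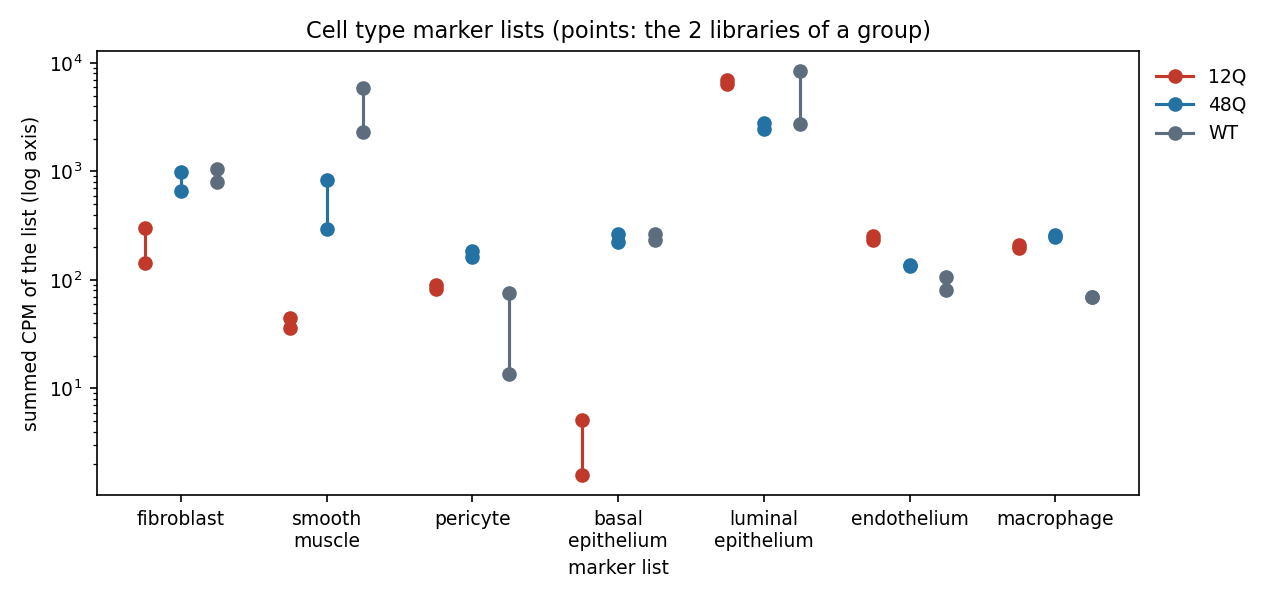
Summed CPM of cell type marker lists on a log axis, where points are the libraries of a group and a line joins them. The fibroblast, smooth muscle and basal lists are lowest in 12Q tumors, and the endothelial list is highest there.

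Over the 6 libraries, the genes outside the family whose log2 CPM ran most like that of each member were ranked by Pearson's r, as a description without a test, since the libraries fall into 3 groups and values of a library share its depth. For Lox these were Mtcp1 (r = 0.997), Tpsb2 (0.996), which encodes a mast cell tryptase, and Il1rl1 (0.996), which encodes the receptor of interleukin 33. Il1rl1 stood at 0.0740 and 0.0928 CPM in 12Q tumors, 3.73 and 3.08 CPM in 48Q tumors and 1.25 and 0.929 CPM in WT prostate. In 12Q replicate 1 it lay under the level of 3 counts (0.111 CPM). Tpsb2 was at 0 in both 12Q libraries, with 6.74 and 5.70 CPM in 48Q tumors and 1.56 and 1.41 CPM in WT prostate. For Loxl1 the nearest genes were Scai (0.998), Zfp950 (0.996) and Mtcp1 (0.995), so that Mtcp1 appeared for both. For Loxl2 they were Rnf223 (0.997), Zscan20 (0.997) and Mms22l (0.994), and for Loxl3 Oas1b (0.999), Lsm5 (0.996) and Snord57 (0.996). Loxl4 had the least close neighbours, Hal (0.978), Fam175a (0.973) and Abca14 (0.958). Some of these genes stood near or under the level of 3 counts. In WT prostate Rnf223 had 0.052 and 0.088 CPM and Abca14 had 0 and 0.088 CPM. Snord57 was at 0 in 12Q replicate 1 and WT replicate 1, and Lsm5 did not exceed 0.57 CPM in any library.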

How the data were processed

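RNA of fresh tumors or normal prostate was isolated with RNA-Bee, per the labels' protocols, and the library kit was Kapa RNA HyperPrep. The authors deposited whole-number read counts per gene with a gene length in kilobases. TopHat2 2.0.14, HTSeq 0.6.0 and mm10 are named in the submitters' processing notes, while neither the annotation nor the strand setting is given in the sources used here. Of the 24091 gene symbols, 23509 were found in GENCODE M21, 23446 of them at an overlapping mm10 position. That annotation gave the exon overlaps and the printed sequences. The gene that carries the glutamine tract and 1 gene of the luminal marker list are not reported here.

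Genes were filtered with filterByExpr (count minimum 10, total minimum 15), scaled by TMM and tested in 1 fit of 3 groups and 6 libraries (3 residual degrees of freedom, common dispersion 0.143) by edgeR 4.0.16's quasi-likelihood test in R 4.3.3. Benjamini-Hochberg adjustment ran over all 15050 genes at a threshold of 0.05. The SE of a log2 fold change was its absolute value over the square root of the test's F statistic. CPM were computed from the counts with TMM-scaled totals, in which 3 counts are the lowest level read as present, and intervals are exact Poisson intervals. Replicates of a group differed by more than sampling noise, so none is a copy of another. The likeness ranking used log2 CPM with a prior count of 2.

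The family members and the gene lists were chosen with earlier results of these data known. Named genes are the 5 members, up to 4 genes per list and comparison that passed the test without overlap and had the smallest adjusted p (or the 2 highest by CPM where none passed), the 3 genes most like each member, and Ctnnb1. Likeness left out predicted genes. The alternatives were DESeq2 size factors, library totals, no filter, DESeq2 1.42.0, a fit of only the groups compared, the replicate number as a block and each library left out in turn. Figures used Python 3.11.15 and matplotlib 3.10.9.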

Additional observations from a re-analysis of the deposited data

Results flagged for a closer look

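Lox and Loxl1 moved in opposite directions in the tumor groups. Both genes were below both WT libraries in both 12Q libraries and above both WT libraries in both 48Q libraries. Of all genes tested, 30.4% lay lower without overlap in 12Q tumors against WT prostate and 34.7% higher in 48Q tumors against WT prostate. The log2 fold change of 12Q over 48Q tumors was -6.39 for Lox and -5.50 for Loxl1. edgeR called both genes lower in 12Q than in 48Q tumors, where 3.16% of all genes were called lower. In 48Q tumors against WT prostate it called Lox higher but not Loxl1. Because the family was chosen with these values known, these calls are given as a description and not as a test of the difference.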

How the results depend on the processing

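The directions of Lox, Loxl1 and Loxl2 against WT prostate, and of Lox and Loxl1 in 12Q against 48Q tumors, were the same in all 12 alternatives. With a library left out, the log2 fold change of Lox ranged from -5.00 to -4.22 in 12Q tumors against WT prostate, 1.59 to 2.07 in 48Q tumors against WT prostate and -6.81 to -6.06 in 12Q against 48Q tumors, and that of Loxl1 from -4.97 to -3.62, 1.15 to 1.54 and -6.30 to -4.98 in the same order. Loxl2 ranged from 1.52 to 2.55, 1.44 to 1.97 and -0.21 to 0.80, Loxl3 from -0.91 to 0.92, 0.40 to 1.95 and -1.88 to -0.48, and Loxl4 from 1.29 to 2.83, 0.31 to 2.82 and -0.71 to 1.55. Lox in 48Q tumors against WT prostate was called in 6 of 12 alternatives, and Loxl2 in 12Q tumors against WT prostate in 6. Loxl1 in 48Q tumors against WT prostate was called in 0 of 12. Scaling by library totals moved the median of all genes (log2 fold change) to 0.48 in 12Q tumors against WT prostate, 0.71 in 48Q tumors against WT prostate and -0.19 in 12Q against 48Q tumors. With it, 12Q tumors against WT prostate gave -4.05 for Lox, -3.63 for Loxl1 and 2.60 for Loxl2, and 48Q tumors against WT prostate gave 2.52, 2.04 and 2.41.

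In 12Q tumors against WT prostate 3370 genes were called, 1887 with only the groups compared and 1861 to 2934 with a library left out (1926 without 12Q replicate 2, 1861 without 48Q replicate 1 and 1870 without 48Q replicate 2). In 48Q tumors against WT prostate 780 were called, 2004 with library totals, 2540 with DESeq2 and 0 to 1215 with a library left out (0 without WT replicate 1, 102 without 48Q replicate 2 and 127 without 48Q replicate 1). In 12Q against 48Q tumors 627 were called, 2481 with DESeq2 and 47 to 866 with a library left out (47 without 48Q replicate 1, 94 without 12Q replicate 2, 126 without 48Q replicate 2 and 147 without 12Q replicate 1). The share of calls that were higher was 50.1%, 76.3% and 24.2% in these comparisons, 76.0%, 95.9% and 14.1% with library totals, and 61.5% and 37.1% with DESeq2 in 48Q tumors against WT prostate and in 12Q against 48Q tumors. Related genes called numbered 43, 3 and 14. With only the groups compared they were 24, 6 and 22, with DESeq2 15 in 48Q tumors against WT prostate and 42 in 12Q against 48Q tumors, with library totals 13 in 48Q tumors against WT prostate, and with a library left out 24 to 35, 0 to 9 and 4 to 22. The cause of these changes was not tested, and fits with a library left out also held fewer samples.

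Deviations of same-numbered replicates from their group means correlated weakly (0.03, 0.13 and -0.10). With 2 libraries per group this cannot show whether the number marks a shared litter or day, and the labels do not say. The replicate number as a block gave 3066, 854 and 605 called genes and 40, 6 and 17 related genes. The lengths of GENCODE M21 were chosen as alternatives after seeing the data. With the coding length of its transcripts, Lox exceeded Loxl1 in every library (1.75% and 2.01% of the family's level against 0.79% and 1.36% in 12Q tumors), whereas with the authors' length Loxl1 exceeded Lox in 12Q replicate 2 and WT replicate 2. The planned coding length from RefSeq proteins was not run, because no protein table was used here. Depth limits Lox and Loxl1 in 12Q tumors, where 4 to 12 counts were read per library.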

Other observations

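Enzymes that modify or cross-link matrix beside the lysyl oxidases were followed in lists of their own. Of 17 genes of collagen hydroxylation and folding, 2 rose and 2 fell in 12Q tumors against WT prostate, where 22.4% of all genes were called. Plod1, a lysyl hydroxylase that makes the hydroxylysine used in cross-links, stood at 57.9 and 48.2 CPM in 12Q tumors, 27.6 and 30.9 CPM in 48Q tumors and 23.7 and 19.0 CPM in WT prostate. It rose in 12Q tumors against WT prostate (log2 fold change 1.31 ± 0.25, edgeR adjusted p = 0.0171, with 0.000161 to 0.0566 over 12 alternatives and above 0.05 without either 48Q replicate and with only the groups compared). P3h3, a prolyl 3-hydroxylase that works with lysyl hydroxylase, stood at 6.18 and 8.29 CPM in 12Q tumors, 14.5 and 15.1 CPM in 48Q tumors and 23.4 and 27.0 CPM in WT prostate. It fell in 12Q tumors against WT prostate (-1.80 ± 0.30, edgeR adjusted p = 0.0124). Without either 48Q replicate no gene of this list rose, and the number that fell was 1 without each library other than WT replicate 1 in turn.

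Among 9 genes of other cross-linking enzymes and amine oxidases, 4 rose and 1 fell in 12Q tumors against WT prostate. The number that rose was 1 without either WT replicate, and the call of the gene that fell was lost without WT replicate 1. That gene was F13a1, coagulation factor XIII A, a transglutaminase also made by macrophages. It stood at 1.59 and 4.05 CPM in 12Q tumors, 11.3 and 10.8 CPM in 48Q tumors and 18.4 and 14.9 CPM in WT prostate (log2 fold change -2.56, edgeR adjusted p = 0.0199, and -3.38 without 12Q replicate 2). Without WT replicate 1 its adjusted p was 0.0619, in a range of 2.79e-05 to 0.0619 over 12 alternatives.

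The seminal vesicle list of 7 genes summed to 1.55 to 2.45 CPM in 12Q tumors, 26.0 to 49.2 CPM in 48Q tumors and 0.730 to 0.884 CPM in WT prostate. The skeletal muscle list of 5 genes summed to 2.38 to 6.25 CPM in 12Q tumors, 3.82 to 9.57 CPM in 48Q tumors and 74.5 to 202 CPM in WT prostate. The keratinizing epithelium list of 7 genes summed to 138 to 166 CPM in 12Q tumors, 57.0 to 77.7 CPM in 48Q tumors and 6.50 to 229 CPM in WT prostate, and the adipocyte list of 5 genes to 21.2 to 31.3 CPM, 11.1 to 18.8 CPM and 1.72 to 8.93 CPM. Their part in the levels of the lysyl oxidase genes was not tested.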
